A study of Mus musculus with 40 samples.

Results

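The neurotrophins and their receptors were read on the arrays by 13 probes of 7 genes, which were *Bdnf*, *Ntf3*, *Ntf5*, *Ntrk2*, *Ntrk3*, *Ngfr* and *Sort1*. They were taken by name from the 36406 gene names and 55681 probes of the arrays; the rule for membership was the gene name, in a choice of genes made with earlier results of these data known. The arrays hold total RNA of cortex and cerebellum, 40 in all, with 4 mice in each of 10 groups. The paper's methods name C57Bl/6 for the ischemia mice and no strain for the mice of the arrays. In each region, wild-type mice were young (2 months) or aged (29 months) and fed the normal diet, with 36 mg of alpha-tocopherol per kg, and further wild-type mice of 29 months had the vitamin E deficient diet. The remaining groups of each region were aged *Ttpa*-/- mice (29 months) on the deficient diet or on the vitamin E supplemented diet with 600 mg of alpha-tocopherol per kg. *Ttpa* encodes the alpha-tocopherol transfer protein, which keeps vitamin E in the circulation, and the study uses its loss as a model of chronic oxidative stress in the brain. There were no *Ttpa*-/- mice on the normal diet and no young *Ttpa*-/- mice, and the labels do not say whether the cortex and the cerebellum of a group came from the same mice.

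Neurotrophins are secreted growth factors that keep neurons alive and tune their synapses. BDNF and NT-4 (the product of *Ntf5*) bind the receptor tyrosine kinase TrkB (*Ntrk2*), and NT-3 (*Ntf3*) binds TrkC (*Ntrk3*). Both receptor genes also make truncated forms that end without the kinase domain and bind the ligand without starting the kinase cascade; in the adult brain truncated TrkB is made largely by astrocytes. The p75 receptor (*Ngfr*) binds all neurotrophins and, with sortilin (*Sort1*), their uncleaved precursors, and sortilin also carries BDNF into the regulated secretory pathway. In the mouse cerebellum, NT-3 and TrkC are known from granule cells, and BDNF acts on granule cells and Purkinje cells through TrkB.

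Where a probe lies decides which form of a transcript it reads, so the probes behind the results are given here on mm9, the build of the files. The *Bdnf* probe lies at chr2:109566961-109567020 (+), from base 4062 of its transcript in the long 3' untranslated region, so it does not read *Bdnf* transcripts that end earlier. The *Ntf3* probe lies at chr6:126051431-126051490 (-). The first 30 of the 60 bases of both probes are as follows.
Bdnf probe, first 30 bases: gtaaatgtctgtggccttgttctctctatg
Ntf3 probe, first 30 bases: tttggcattcagtattgtcaaggccatgac

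*Ntrk2* had 3 probes. The shared probe at chr13:58979563-58979622 (+) is upstream of the point where the full-length and the truncated form part and belongs to both. The full-length probe at chr13:59230936-59230995 (+) and the truncated probe at chr13:59038046-59038105 (+) read the 3' ends of one form each. They are shown because the ranges of the ratio of the 2 forms did not overlap between young and aged wild-type mice, though this did not pass adjustment.
Ntrk2 shared probe: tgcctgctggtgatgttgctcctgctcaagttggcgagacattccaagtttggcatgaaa
Ntrk2 full-length probe, first 30 bases: tcaattgatacctatgtgcacgtgtgcaga
Ntrk2 truncated probe, first 30 bases: ttctcaccagcttaattttagccgatgcat

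*Ntrk3* had 4 probes. Kinase probe 1 (chr7:85337455-85337514, -) and kinase probe 2 (chr7:85392044-85392103, -) lie in the coding sequence of the kinase form. Truncated probe 1 (chr7:85447515-85447574, -) covers the last coding bases of the truncated form and ends on its stop codon, which is in capitals. Truncated probe 2 (chr7:85445908-85445967, -) belongs to the same transcript and lies downstream of the stop codon. The 3 coding probes are shown because they moved in opposite directions in *Ttpa*-/- cortex.
Ntrk3 kinase probe 1: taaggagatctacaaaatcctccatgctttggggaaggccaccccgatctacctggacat
Ntrk3 kinase probe 2: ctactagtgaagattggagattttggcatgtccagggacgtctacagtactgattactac
Ntrk3 truncated probe 1: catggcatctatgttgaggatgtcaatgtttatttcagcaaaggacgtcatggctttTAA

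*Sort1* had 2 probes, a coding probe that spans an intron (chr3:108157150-108159198, +) and a 3' end probe (chr3:108164349-108164408, +) that starts at base 6674 of the transcript. They are shown because only the 3' end probe changed within a region. *Ngfr* was read at chr11:95430211-95430270 (-) and *Ntf5* at chr7:52671758-52671817 (+).
Sort1 coding probe: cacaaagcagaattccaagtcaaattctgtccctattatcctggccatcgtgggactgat
Sort1 3' end probe, first 30 bases: gtgtttaactttgtactggtaattttctgt

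Every value below is a log2 signal relative to the 75th percentile of its array, so a difference of 1 is a doubling, and levels of different probes cannot be set against each other. The p-values measure the spread among these mice. A probe was called changed with an adjusted p under 0.05 in limma. A member was tested where it was well above background on all 4 arrays of a compared group, which held for 12 of the 13 probes in every comparison. The exception was *Ntf5*. That percentile was a signal of 365 to 925, and an array had 51.4% to 61.4% of its probes well above background. In cerebellum the best *Ttpa* probe was detected on 4 of 4 arrays of each wild-type group, on 0 of 4 of the *Ttpa*-/- group on the deficient diet and on 1 of 4 on the supplemented diet. In cortex it was near background in wild-type mice too, so it does not check the genotype there. The arrays lay on 5 slides of 8, and each group lay on 1 slide. Aging in cortex, the deficient diet in wild-type cerebellum and the supplemented diet in *Ttpa*-/- cerebellum were compared within a slide. In all other comparisons slide and condition cannot be told apart.

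Within the cortex, aging changed 0 of the 12 probes (4.14% of all probes tested changed). At an unadjusted p under 0.05 there were 6 in limma and 5 in the methods' t-test. Without young replicate 4 it changed 1, *Ntrk3* truncated probe 1, and without aged replicate 4 it changed 2, that probe and *Ngfr*. The other aged groups are named WT deficient, *Ttpa*-/- deficient and *Ttpa*-/- supplemented, and their controls were the aged wild-type mice of the normal diet. Against these, 6 probes changed in *Ttpa*-/- deficient mice, 3 up and 3 down (19.0% of all), 1 changed in WT deficient mice, downward (0.340% of all), and 1 in *Ttpa*-/- supplemented mice, downward (0.212% of all). *Ttpa*-/- deficient against WT deficient mice gave 3, 2 up and 1 down (13.0% of all). The supplemented against the deficient diet in *Ttpa*-/- mice gave 3, 2 up and 1 down (14.1% of all). The share of member probes was above that of all probes in these 5 comparisons, which in 2 of them rested on a single member, *Bdnf*. Probes of 1 gene count separately here, and 3 of the 6 were *Ntrk3* probes. In *Ttpa*-/- against WT deficient mice and in the supplemented against the deficient diet, the calls were 2 *Ntrk3* probes and 1 *Sort1* probe.

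Within the cerebellum, aging changed 3 of the 12 probes, all downward (11.0% of all probes changed). Against the aged controls, 2 changed in *Ttpa*-/- deficient mice, upward (13.2% of all), 1 in WT deficient mice, upward (4.58% of all), and 2 in *Ttpa*-/- supplemented mice, 1 up and 1 down (14.7% of all). *Ttpa*-/- deficient against WT deficient mice gave 1, upward (12.8% of all). The supplemented diet in *Ttpa*-/- mice changed 0 (0.767% of all), with 2 at an unadjusted p under 0.05 both in limma and in the methods' t-test. In the comparisons of *Ttpa*-/- with wild-type mice the counts of 1 or 2 of 12 are close to the share of all probes. The comparisons of a region share control arrays, so they are not independent of each other.

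**Figure D1:**
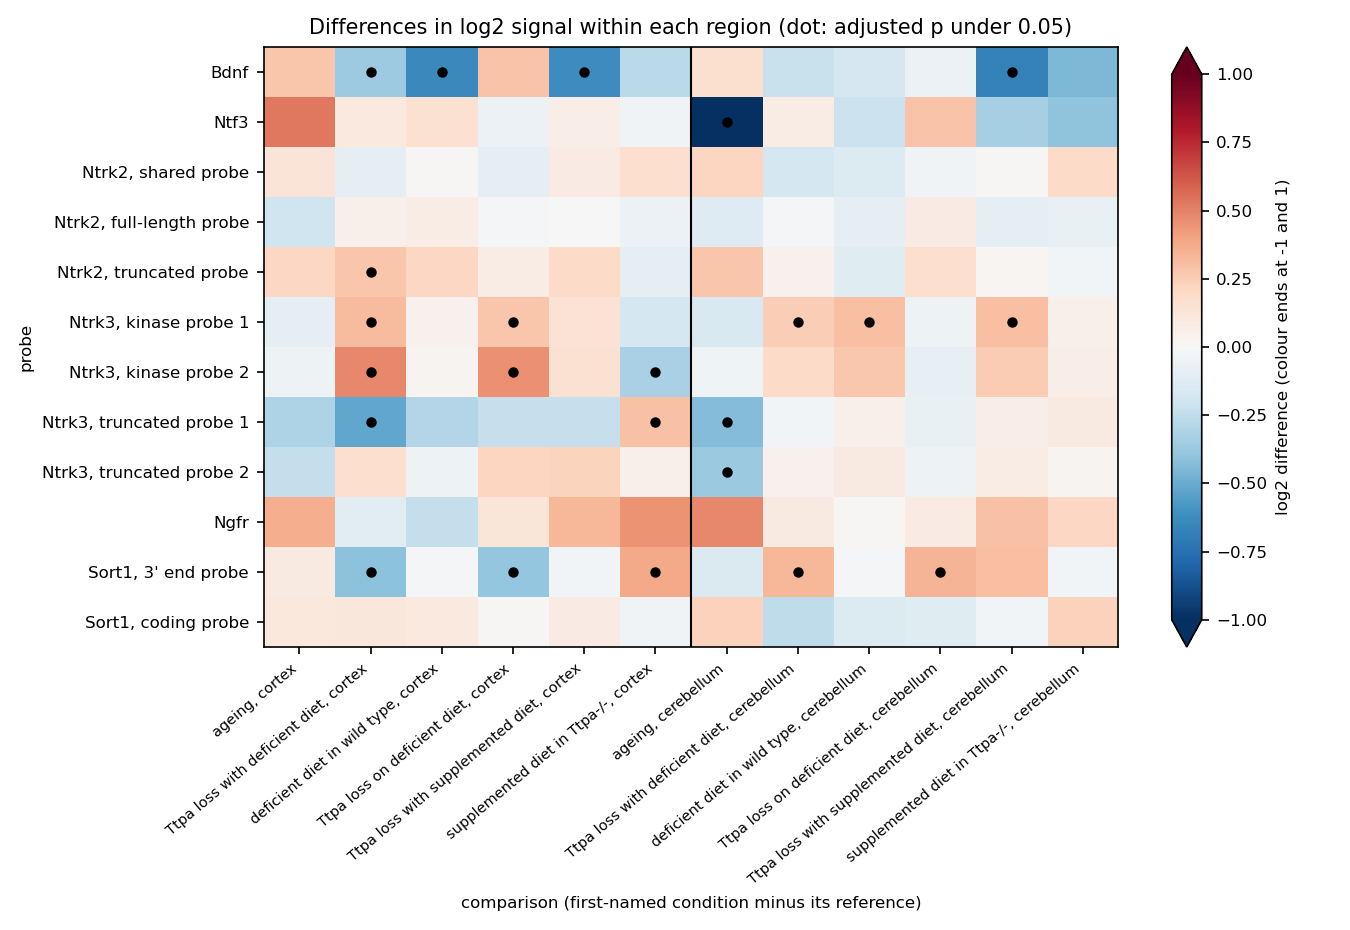
Difference in log2 signal of the 12 tested probes (rows) in the 12 comparisons within cortex (left of the line) and cerebellum (right); red is higher in the first-named condition, and a dot marks an adjusted p under 0.05. The darkest cell is *Ntf3* in aging cerebellum at -2.07, and the dots of *Ntrk3* kinase probe 2 and truncated probe 1 in cortex have opposite colours.

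*Ntf3* showed the largest difference of any member. In young wild-type cerebellum its log2 signal was 1.45, 1.46, 1.40 and 1.21. In aged wild-type cerebellum it was -0.55, -0.73, -0.59 and -0.91. The groups were far apart: *Ntf3* fell by 2.07 on the log2 scale with age (SE 0.22, adjusted p = 2.38e-08), 4.19-fold, and no array of the 4 aged groups reached the 4 young ones. The call held without any 1 of the 8 arrays.

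The other aged cerebella stayed at the low level. *Ntf3* was -1.52, -0.96, -1.02 and -0.13 in WT deficient mice. It was -0.48, -0.98, -0.34 and -0.67 in *Ttpa*-/- mice on the deficient diet and -0.88, -1.22, -0.96 and -1.02 on the supplemented diet. These 4 aged groups overlapped, and among neighbours in the order of levels only the step from the highest aged group to the young group differed (2.00 on the log2 scale, adjusted p = 5.41e-08).

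In cortex *Ntf3* did not fall. Its log2 signal was -0.44, -0.41, -0.49 and -1.34 in young and 0.09, -0.51, -0.30 and 0.13 in aged wild-type mice, a difference of 0.52 (SE 0.22) that did not pass (adjusted p = 0.224). The 3 other aged groups of the cortex ranged from -0.50 to 0.31 and overlapped with the aged wild-type mice. Young replicate 4, at -1.34, stood far below the other young arrays. The effect of age differed between the regions by 2.59 (SE 0.31, adjusted p = 4.56e-06), and *Ntf3* was the 1 member of 12 for which it did (1.83% of all probes).

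The order of the regions therefore turned with age. In young mice *Ntf3* was higher in cerebellum, by 4.13-fold. In aged mice it was higher in cortex in all 4 groups, by 0.55, 0.92, 0.57 and 0.94 on the log2 scale in the aged wild type, WT deficient, *Ttpa*-/- deficient and *Ttpa*-/- supplemented mice. The 0.55 did not pass without aged cortex replicate 1 or 4 or aged cerebellum replicate 2 or 4 (adjusted p of 0.0642 to 0.109), nor did the 0.57 without cortex replicate 2 or 4 or cerebellum replicate 2 (adjusted p of 0.0729 to 0.0914). The 0.55 also did not pass under median scaling (0.57, adjusted p = 0.0603).

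The young and the aged cerebella lay on different slides, so for *Ntf3* slide and age cannot be told apart; *Ttpa*-/- deficient cortex, on the slide of the young cerebella, was at -0.32 to 0.25. Markers of cell types also differed between these arrays. Markers of cerebellum neurons averaged 5.19 to 5.41 on the young and 4.89 to 5.05 on the aged arrays, with 3 of 10 lower and none higher (4.08% of all probes were lower and 6.93% higher). Of 10 microglia markers 8 rose, from averages of 1.18 to 1.60 to averages of 2.62 to 2.75. Markers of the choroid plexus averaged 3.25, 0.67, -0.50 and -0.80 on the 4 young arrays and -2.0 to -1.45 on the aged ones. In RNA of whole tissue, fewer cells of a type and less RNA per cell cannot be told apart, and the part of these markers in the fall was not tested.

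**Figure D2:**
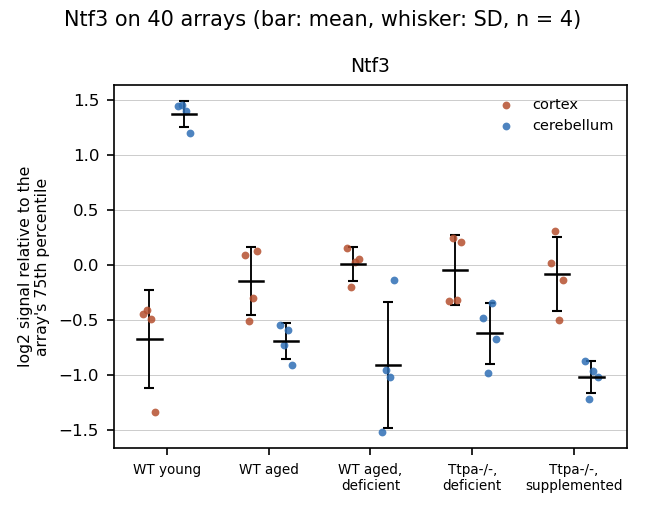
Log2 signal of *Ntf3* relative to the array's 75th percentile for the 4 arrays of each group (points) in cortex and cerebellum, with the mean and the SD. The 4 young cerebella sit between 1.21 and 1.46, and no aged cerebellum is above -0.13.

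*Bdnf* was lower in the 3 other aged cortex groups than in the aged controls, where its log2 signal was 1.28, 1.53, 1.39 and 1.14. For WT deficient mice it was 0.39, 0.74, 0.96 and 0.66. For *Ttpa*-/- supplemented mice it was 0.68, 0.64, 0.62 and 0.89. Neither group reached the lowest array of the aged controls.

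The fall was 0.65 (SE 0.13, adjusted p = 0.0237) on the deficient diet, 1.57-fold, and 0.63 (SE 0.13, adjusted p = 0.0244) in *Ttpa*-/- mice on the supplemented diet, 1.54-fold. The *Ttpa*-/- deficient mice had *Bdnf* at 0.84, 0.96, 0.93 and 1.16, which overlapped with the controls, with a fall of 0.36 (SE 0.13, adjusted p = 0.0449). *Bdnf* was the member behind the single calls in the first 2 comparisons, where few probes of the arrays changed at all.

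The 3 comparisons share their 4 control arrays. Without aged wild-type replicate 1, 2 or 3 none of the 3 passed (adjusted p of 0.0636 to 0.154). The first was also lost without WT deficient replicate 1 or 2 (0.250 and 0.0653), the second without *Ttpa*-/- supplemented replicate 2 or 3 (0.109 and 0.118) and the third without *Ttpa*-/- deficient replicate 1, 2 or 3 (0.144, 0.0858 and 0.103). The direction held in every one of these fits. Under median scaling the 3 differences were -0.56, -0.66 and -0.28, and none passed (adjusted p = 0.160, 0.0990 and 0.262). The WT deficient and *Ttpa*-/- supplemented cortex shared 1 slide, which was not the slide of their controls.

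Striatum markers also varied in the cortex samples. The average of 10 striatum markers was 0.78 to 1.1 in the aged controls, 1.35 to 2.21 in WT deficient, 1.34 to 1.54 in *Ttpa*-/- deficient and 0.71 to 2.07 in *Ttpa*-/- supplemented mice. The averages lay above those of the controls throughout WT deficient and *Ttpa*-/- deficient mice, and on both sides of them in *Ttpa*-/- supplemented mice. Young wild-type cortex, at 1.52 to 1.99, was above the aged controls too. The part of striatal tissue in the *Bdnf* values was not tested.

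Between young and aged wild-type mice, on the same slide, *Bdnf* in cortex went from 1.09, 1.16, 1.13 and 0.83 to the aged values above. The difference of 0.28 (SE 0.13) did not pass (adjusted p = 0.280). The striatum markers differed between these groups as well, and their part was not tested. The order of the 5 cortex groups ran from *Ttpa*-/- supplemented and WT deficient at the bottom to aged wild type at the top, and no neighbours in it differed beyond their spread.

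In cerebellum *Bdnf* was lowest in *Ttpa*-/- mice on the supplemented diet, at 0.36, 0.19, 0.43 and 0.35. In aged wild-type mice it was 0.89, 1.22, 0.91 and 1.02. The groups did not overlap, and *Bdnf* fell by 0.68 (SE 0.13, adjusted p = 6.83e-04), 1.60-fold, a call that held without any 1 of the 8 arrays. On the same slide, *Ttpa*-/- mice on the deficient diet had 0.57, 0.71, 0.81 and 1.04, which did not overlap with the supplemented mice either, but that difference of -0.45 did not pass (adjusted p = 0.0884). WT deficient mice had 1.02, 0.70, 0.96 and 0.68 and young mice 0.46, 0.89, 1.0 and 1.05, and neither differed from the aged controls (adjusted p = 0.465 and 0.526).

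Between the regions *Bdnf* was nearly level. It was higher in cortex in aged wild-type mice (0.32, adjusted p = 0.0306) and in *Ttpa*-/- supplemented mice (0.37, adjusted p = 0.0121). The first was lost without cortex replicate 2 or 3 or cerebellum replicate 1 or 3 (adjusted p of 0.0658 to 0.112) and the second without cortex replicate 4 (0.0508). In the 3 other groups the difference was -0.15 to 0.20 and did not pass.

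*Ntf5*, whose product NT-4 is the other TrkB ligand, was near the limit of the arrays. It was well above background on 6 of 40 arrays, 2 of young wild-type cortex, 3 of *Ttpa*-/- deficient cortex and 1 of young cerebellum. No group had it on all 4 arrays, so it was not tested and no fold is given.

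**Figure D3:**
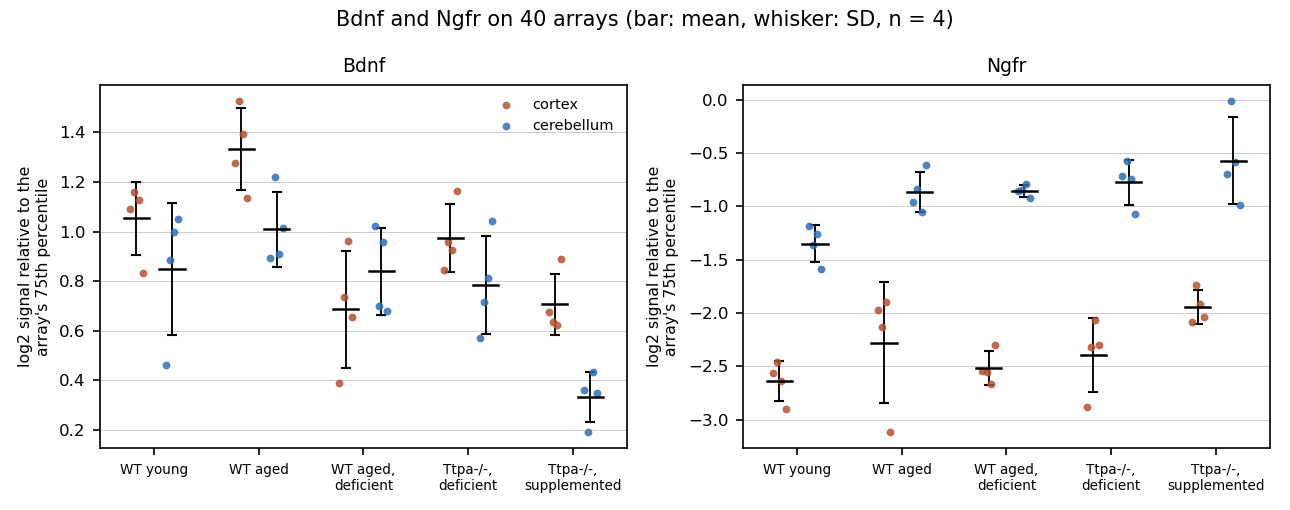
Log2 signal of *Bdnf* (left) and *Ngfr* (right) relative to the array's 75th percentile for the 4 arrays of each group (points), with the mean and the SD. *Bdnf* in *Ttpa*-/- supplemented cerebellum stays at or below 0.43, and every *Ngfr* value of cerebellum is above every one of cortex.

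TrkB separated the regions by its full-length form. The full-length *Ntrk2* probe was at 3.52, 3.63, 3.51 and 3.62 in young cortex and at 1.87, 2.17, 2.21 and 2.27 in young cerebellum. In aged wild-type mice it was at 3.33, 3.37, 3.36 and 3.44 in cortex and at 2.03, 2.0, 2.07 and 1.88 in cerebellum. The regions did not overlap in any group, and cortex was higher by 1.38 to 1.54 on the log2 scale, 2.60-fold to 2.92-fold. The truncated probe was higher in cortex by 0.21 to 0.54, called in 4 of 5 groups, and the shared probe by 0.52 to 0.67 in all 5. The call of the truncated probe in young mice (0.28, adjusted p = 0.0168) was lost without cortex replicate 1 (0.0721) or cerebellum replicate 1 (0.0728).

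Across age, diet and genotype *Ntrk2* moved little. The full-length and the shared probe changed in 0 of the 12 comparisons within a region in limma. At an unadjusted p under 0.05 these were 1 and 2 comparisons in limma and 2 and 1 in the methods' t-test. Without young cerebellum replicate 1, the full-length probe was -0.22 lower in aging cerebellum (adjusted p = 0.0398). The 10 spots of the full-length probe had a median SD of 0.038 within an array, against 0.082 between arrays of a group. The truncated probe rose in *Ttpa*-/- deficient cortex, at 2.20, 2.37, 2.37 and 2.38 against 2.06, 1.99, 1.94 and 2.21 in aged wild-type mice. That rise was 0.28 (SE 0.10, adjusted p = 0.0496), the groups overlapped, and among fits without 1 array it passed only without aged wild-type replicate 4 (adjusted p of 0.0547 to 0.135 in the 7 others). Of 10 astrocyte markers 3 fell and none rose in the same comparison, where 9.56% of all probes fell and 9.45% rose, and their part in it was not tested.

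The ratio of the 2 forms was lower in aged than in young wild-type mice, without passing adjustment. In cerebellum the young and the aged mice lay on different slides. Within each array, the full-length minus the truncated probe, centred over all arrays, was 0.77 to 1.18 in young and 0.49 to 0.67 in aged wild-type cortex. In cerebellum it was -0.28 to -0.13 in young and -0.95 to -0.43 in aged wild-type mice. The ratio was lower in the aged mice by 0.41 in both regions with no overlap, at an exact permutation p of 0.0286, the smallest that 4 against 4 arrays allow. Over the 102 ratio comparisons made (6 ratios in 17 comparisons), the Benjamini-Hochberg value is 0.0550, the lowest of all, so none passed. In aged mice the ratio did not separate diets or genotypes in either region.

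**Figure D4:**
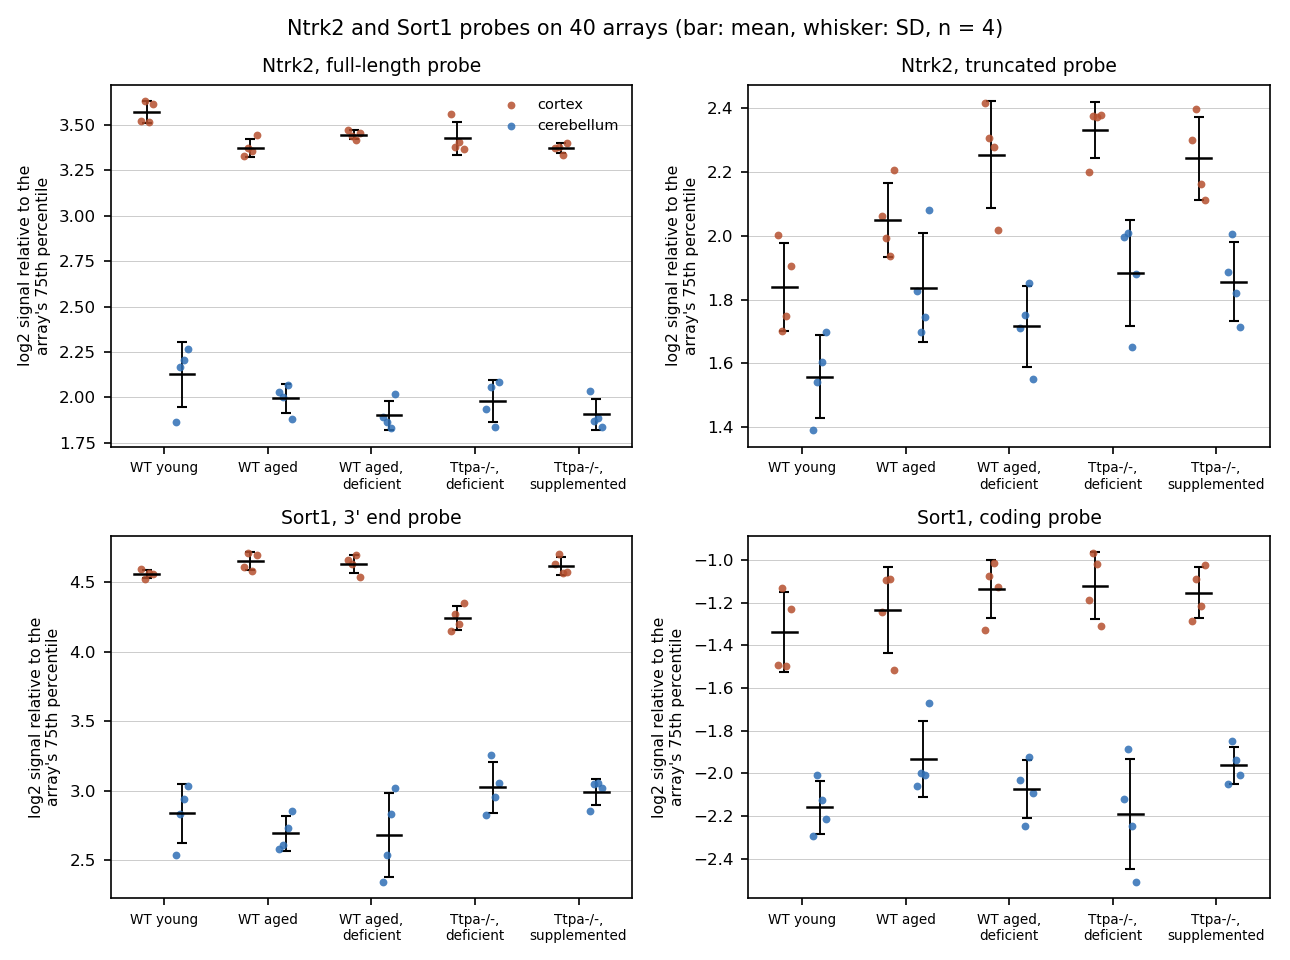
Log2 signal relative to the array's 75th percentile of the full-length and the truncated *Ntrk2* probe (top) and of the 3' end and the coding probe of *Sort1* (bottom) for the 4 arrays of each group (points), with the mean and the SD. The full-length *Ntrk2* probe is above 3.3 on every cortex array and below 2.3 on every cerebellum array, and the 3' end probe of *Sort1* is lowest in cortex in *Ttpa*-/- deficient mice.

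TrkC, read by 4 of the 12 tested probes, was called in 5, 3, 3 and 1 of the 12 comparisons within a region by kinase probes 1 and 2 and truncated probes 1 and 2. *Bdnf*, with 1 probe, was called in 4. The probes of the kinase and the truncated form moved apart in *Ttpa*-/- deficient cortex. Kinase probe 2 was at 1.80, 1.73, 1.86 and 1.61 there, against 1.32, 1.12, 1.23 and 1.43 in aged wild-type mice. Truncated probe 1 was at 1.34, 1.29, 1.38 and 1.51, against 1.99, 1.75, 1.82 and 2.03. Neither pair of groups overlapped: kinase probe 2 rose by 0.48 (SE 0.10, adjusted p = 0.00136), 1.39-fold, and truncated probe 1 fell by 0.52 (SE 0.10, adjusted p = 5.10e-04), 1.43-fold.

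Kinase probe 1 moved with kinase probe 2. It was at 3.41, 3.39, 3.46 and 3.34 against 3.1, 2.95, 3.11 and 3.17, a rise of 0.32 (SE 0.09, adjusted p = 0.00926) with no overlap. These 3 calls held without any 1 of the 8 arrays and under median scaling. All 3 were under 1.5-fold.

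The 2 probes of the truncated transcript disagreed. Truncated probe 2 was at 1.89, 1.87, 1.88 and 1.81 in *Ttpa*-/- deficient cortex and 1.67, 1.57, 1.74 and 1.79 in aged wild-type cortex, a difference of 0.17 that did not pass (adjusted p = 0.150), with the groups apart and *Ttpa*-/- deficient mice higher. With array weights it was called higher (0.21, adjusted p = 0.0172). Against WT deficient cortex the difference was 0.22 (adjusted p = 0.0756), called higher with array weights (0.23, adjusted p = 0.00892) and without WT deficient replicate 4 (0.27, adjusted p = 0.0313). The fall was therefore read by the probe at the stop codon, and the probe downstream of it did not show it.

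The other cortex groups also differed in the same measure, in steps that partly followed the slides. Kinase probe 2 minus truncated probe 1, centred over all arrays, was -0.70 to -0.59 in young, -0.42 to -0.34 in aged wild type, -0.11 to 0.06 in WT deficient, -0.09 to 0.08 in *Ttpa*-/- supplemented and 0.35 to 0.74 in *Ttpa*-/- deficient mice. Only the WT deficient and *Ttpa*-/- supplemented ranges overlapped, and these groups shared a slide. Young and aged wild-type cortex shared another slide, and *Ttpa*-/- deficient cortex lay on neither. Between slides, slide and condition cannot be told apart in this order. Each step that was compared had an exact permutation p of 0.0286 (0.0550 after adjustment over the 102). Against truncated probe 2 in its place, the ranges were -0.47 to -0.33, -0.29 to -0.13, -0.32 to 0.05, -0.30 to -0.24 and 0.03 to 0.21, so *Ttpa*-/- supplemented cortex was not raised there. WT deficient cortex overlapped with aged wild-type cortex in that ratio, with a difference of 0.07 (exact permutation p = 0.514).

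Genotype and diet each met part of this pattern. On the deficient diet, *Ttpa*-/- against wild-type cortex gave kinase probe 2 at 0.45 (adjusted p = 0.00373), which held without any 1 of the 8 arrays but not under median scaling (adjusted p = 0.0739), and kinase probe 1 at 0.27 (adjusted p = 0.0313). The second was lost without WT deficient replicate 1 or 3 (0.0706 and 0.121) or *Ttpa*-/- deficient replicate 1, 2 or 3 (0.0803, 0.0574 and 0.0910).

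The supplemented diet in *Ttpa*-/- cortex went the other way, with kinase probe 2 lower by -0.32 (adjusted p = 0.0269) and truncated probe 1 higher by 0.29 (adjusted p = 0.0393). Each was lost in 6 of 8 fits without an array (adjusted p of up to 0.0946 and 0.112). They were *Ttpa*-/- deficient replicates 1, 2 and 3 for both, with supplemented replicates 1, 3 and 4 for kinase probe 2 and 1, 2 and 3 for truncated probe 1. *Ttpa*-/- deficient cortex lay on a slide with no other cortex group, so slide and condition cannot be told apart here.

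In cerebellum the deficient and the supplemented groups shared 1 change. Kinase probe 1 was at 3.62, 3.90, 3.64 and 3.63 in aged wild-type mice and at 4.16, 3.90, 3.95 and 3.96 in WT deficient mice, on the same slide. The rise was 0.30 (SE 0.09, adjusted p = 0.0409), and the groups met at 3.90 without crossing. *Ttpa*-/- mice had the probe higher by 0.25 on the deficient (adjusted p = 0.0493) and 0.30 on the supplemented diet (adjusted p = 0.0164), with overlap. Control replicate 2 stood apart at 3.90.

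Leaving out 1 array ended these calls often. The first was lost without aged control replicate 1, 3 or 4 or WT deficient replicate 1 or 2 (adjusted p of 0.0635 to 0.218). The second was lost without control replicate 1, 3 or 4 or *Ttpa*-/- deficient replicate 1, 3 or 4 (0.0775 to 0.161), and the third without control replicate 1 or 3 or *Ttpa*-/- supplemented replicate 1 (0.050 to 0.0599). Kinase probe 2 was higher by 0.27, 0.19 and 0.25 in the same comparisons and did not pass, though without control replicate 2 the first and the third did (0.35 and 0.33, adjusted p = 0.0486 and 0.0343).

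Both truncated probes were lower in aged than in young cerebellum. These groups lay on different slides, so slide and age cannot be told apart. Truncated probe 1 was at 2.72, 2.68, 2.35 and 2.48 in young and 2.19, 2.30, 2.14 and 1.87 in aged wild-type mice. Truncated probe 2 was at 2.43, 2.51, 2.34 and 2.20 in young and 1.99, 2.15, 2.03 and 1.83 in aged mice. Neither overlapped, with falls of 0.44 (adjusted p = 0.00228) and 0.37 (adjusted p = 0.00252), and both calls held without any 1 of the 8 arrays. In the methods' t-test, adjusted, truncated probe 2 passed in 0 of the 12 comparisons within a region. The kinase probes were at -0.15 and -0.04 and did not pass. In cortex the truncated probes were lower in aged mice by -0.31 and -0.24 without passing (adjusted p = 0.0622 and 0.105), truncated probe 1 passing without young replicate 4 or aged replicate 4 (0.0223 and 0.0454), and the effect of age on them was not shown to differ between the regions (adjusted p = 0.855 for truncated probe 1).

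The regions did differ in what came with *Ttpa* loss. The difference between *Ttpa*-/- deficient and aged wild-type mice was -0.52 in cortex and -0.02 in cerebellum for truncated probe 1, an interaction of -0.49 (SE 0.14, adjusted p = 0.0253). It was 1 of 2 members with such a difference (7.04% of all probes), the other being *Sort1*. Against wild-type mice on the deficient diet, kinase probe 2 and *Sort1* were the 2 (1.14% of all probes), kinase probe 2 with an interaction of 0.54 (SE 0.14, adjusted p = 0.0491). The -0.49 was lost without aged wild-type cortex replicate 1, aged wild-type cerebellum replicate 4, *Ttpa*-/- deficient cortex replicate 1 or 2 or *Ttpa*-/- deficient cerebellum replicate 4 (adjusted p of 0.0522 to 0.0692). The 0.54 was lost in 12 of 16 fits without 1 array (adjusted p of 0.0514 to 0.114) and held only without *Ttpa*-/- deficient cortex replicate 4, *Ttpa*-/- deficient cerebellum replicate 1 or 3 or WT deficient cerebellum replicate 4. Between the regions, both kinase probes were higher in cerebellum in each of the 5 groups, kinase probe 1 by 0.54 to 0.87. Truncated probe 1 was higher there in 4 groups, and its difference of -0.22 (cortex minus cerebellum) in aged wild-type mice did not pass (adjusted p = 0.0502). Truncated probe 2 was higher in the 3 wild-type groups, and its differences of -0.18 in *Ttpa*-/- deficient and -0.16 in *Ttpa*-/- supplemented mice did not pass (adjusted p = 0.0520 and 0.0921). Each of these 3 passed under some alternatives, among them quantile normalization (adjusted p = 0.0230, 0.0429 and 0.0272).

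**Figure D5:**
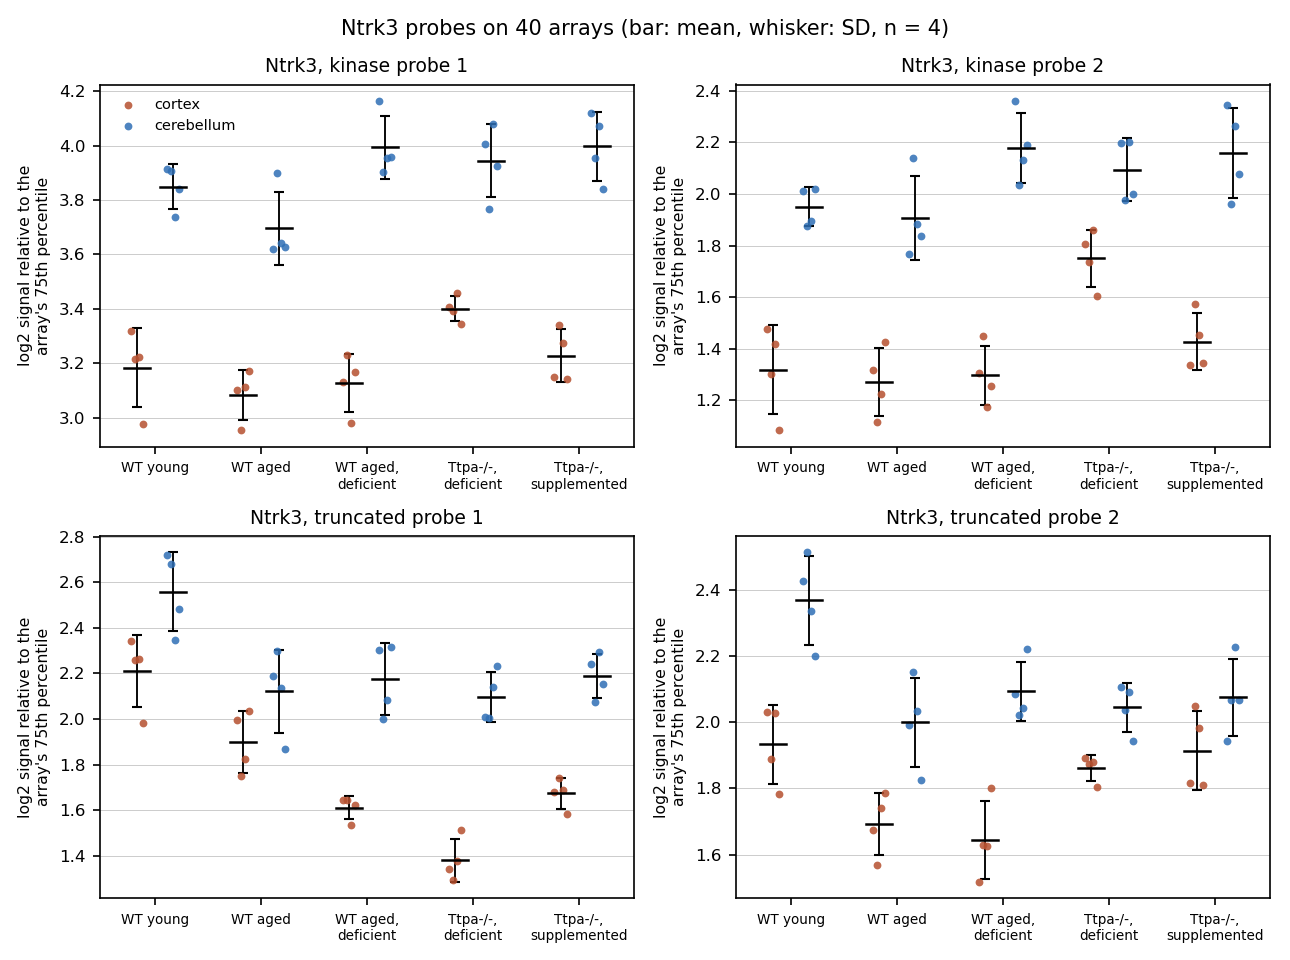
Log2 signal of the 4 *Ntrk3* probes relative to the array's 75th percentile for the 4 arrays of each group (points), with the mean and the SD; each panel has its own axis. In cortex, both kinase probes are highest and truncated probe 1 is lowest in *Ttpa*-/- deficient mice, while truncated probe 2 is not.

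*Ngfr* marked the cerebellum. In aged wild-type mice it was at -0.96, -0.84, -1.05 and -0.61 in cerebellum and at -1.97, -2.13, -1.89 and -3.11 in cortex. The regions overlapped in no group, and cerebellum was higher by 1.29 to 1.66 on the log2 scale, 2.45-fold to 3.16-fold. With normexp background correction, which compresses dim signals, the same differences were 0.70 to 1.06 and all passed.

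Within a region *Ngfr* changed in 0 of 12 comparisons in limma, with 2 at an unadjusted p under 0.05 and 1 in the methods' t-test. The largest were 0.48 in aging cerebellum, without overlap (adjusted p = 0.123), and 0.45 for the supplemented diet in *Ttpa*-/- cortex (adjusted p = 0.130). Aged cortex replicate 4, at -3.11, was the lowest of all 40 arrays, and without it *Ngfr* was higher in aged than in young cortex by 0.64 (adjusted p = 0.0270). The median SD of its spots within an array was 0.10, against 0.189 between arrays of a group.

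*Sort1* was higher in cortex than in cerebellum in every group. Its 3' end probe was at 4.61, 4.71, 4.58 and 4.70 in aged wild-type cortex and at 2.58, 2.61, 2.73 and 2.85 in aged wild-type cerebellum. Cortex was higher by 1.22 to 1.96 in the 5 groups, 2.33-fold to 3.89-fold, and by 0.70 to 1.07 on the coding probe, without overlap in any group on either.

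The 3' end probe set *Ttpa*-/- deficient cortex apart. There it was at 4.15, 4.27, 4.20 and 4.35, below every array of the other 4 cortex groups, which ranged from 4.52 to 4.71. It fell by 0.41 against aged wild-type mice (SE 0.11, adjusted p = 0.00810), 1.33-fold, and by 0.39 against WT deficient mice (adjusted p = 0.0169), and it was 0.38 higher on the supplemented diet (adjusted p = 0.0183). The first call held without any 1 of the 8 arrays, and none of the 3 passed under median scaling (adjusted p = 0.281, 0.233 and 0.427). The second was lost without WT deficient replicate 1 or 3 or *Ttpa*-/- deficient replicate 1 (0.0501 to 0.0665), and the third without *Ttpa*-/- deficient replicate 1 or 3 or supplemented replicate 2 (0.0520 to 0.0738).

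In cerebellum the same probe pointed the other way. *Ttpa*-/- deficient mice had 2.83, 3.26, 2.95 and 3.06, which overlapped with the aged wild-type values above, a rise of 0.33 (SE 0.11, adjusted p = 0.0380). Against WT deficient mice, at 2.34, 2.53, 2.83 and 3.02, the rise was 0.34 (adjusted p = 0.0330). The first was lost without control replicate 1, 2 or 3 or *Ttpa*-/- replicate 2, 3 or 4 (adjusted p of 0.0530 to 0.122), and the second without WT deficient replicate 1 or 2 or *Ttpa*-/- replicate 2 or 4 (0.0685 to 0.203). *Ttpa*-/- supplemented mice were about as high, at 2.86, 3.05, 3.05 and 3.02, just clear of the aged wild-type values. Their difference of 0.30 did not pass (adjusted p = 0.0558), but it did with quantile normalization (0.0127), normexp (0.0387), the replicate block (0.0169) or array weights (0.00747) and without aged wild-type replicate 4 (0.0371) or *Ttpa*-/- supplemented replicate 1 (0.0473). The 2 diets of the *Ttpa*-/- mice differed by -0.03 (adjusted p = 0.977).

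The difference between the regions was itself large, with interactions of -0.74 (SE 0.15, adjusted p = 0.00439) and -0.73 (SE 0.15, adjusted p = 0.0143), both of which held without any 1 of the 16 arrays. Under median scaling neither passed (-0.66 and -0.92, adjusted p = 0.223 and 0.0963).

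The coding probe of *Sort1* changed in 0 of 12 comparisons within a region in limma, with 1 at an unadjusted p under 0.05 and 0 in the methods' t-test. In cortex it differed by 0.11 between *Ttpa*-/- deficient and aged wild-type mice (adjusted p = 0.549), and in cerebellum by -0.26 (adjusted p = 0.153), which passed only without *Ttpa*-/- deficient replicate 2 (-0.36, adjusted p = 0.0432). The 3' end minus the coding probe was -0.10 to 0.34 in *Ttpa*-/- deficient and 0.35 to 0.89 in aged wild-type cortex, and -0.38 to 0.24 and -0.80 to -0.58 in cerebellum.

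Between *Ttpa*-/- deficient and aged wild-type mice, a measure of the 3' end over all genes differed in the direction of the *Sort1* 3' end probe in both regions, with overlap in cortex. Over 1999 transcripts with probes at least 500 bases apart, the median of the 3' minus the 5' probe was 0.18 in *Ttpa*-/- deficient cerebellum (0.10 to 0.33), the highest of the 10 groups, and 0.03 in aged wild-type cerebellum. In cortex it was -0.10 in *Ttpa*-/- deficient (-0.16 to 0.04) and -0.05 in aged wild-type mice (-0.09 to -0.03). Young wild-type cortex had -0.11 (-0.14 to -0.09), while its *Sort1* 3' end probe averaged 4.56, against 4.24 in *Ttpa*-/- deficient cortex. The part of this measure in the *Sort1* values was not tested.

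Oligodendrocyte markers were also lower than in the aged controls in *Ttpa*-/- deficient mice of both regions and in WT deficient cerebellum. Of 10 markers 3 were lower and none higher in *Ttpa*-/- deficient mice in each region (9.56% of all probes were lower in cortex and 6.40% in cerebellum), with averages of 2.45 to 2.83 against 2.67 to 3.57 in cortex and of 2.53 to 2.78 against 3.05 to 3.25 in cerebellum. In *Ttpa*-/- supplemented mice these markers averaged 3.01 to 3.37 in cortex and 2.82 to 3.07 in cerebellum. In WT deficient cerebellum they averaged 2.16 to 3.08, again with 3 of 10 lower and none higher (3.41% of all probes were lower), and kinase probe 1 of *Ntrk3* was called higher there. In WT deficient cortex they averaged 2.43 to 3.19 with 0 of 10 called in limma (3 at an unadjusted p under 0.05), and the 3' end probe of *Sort1* was at 4.54 to 4.70. The part of this in the changes of *Ntrk3*, *Ntrk2* and *Sort1* was not tested.

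Between cortex and cerebellum, 11, 10, 11, 10 and 11 of the 12 probes differed in young wild-type, aged wild-type, WT deficient, *Ttpa*-/- deficient and *Ttpa*-/- supplemented mice, where 62.5%, 56.4%, 66.9%, 65.7% and 60.2% of all probes did. *Ntrk2*, *Sort1* and, in aged mice, *Ntf3* were higher in cortex. *Ntrk3*, *Ngfr* and, in young mice, *Ntf3* were higher in cerebellum. In *Ttpa*-/- deficient mice, whose replicate numbers paired the regions, the fit with the pairing as a block gave 11 in place of 10, the added probe being *Ntrk3* truncated probe 2 (-0.18, adjusted p = 0.0456 with the block and 0.0520 without it). The effect of the deficient diet in wild-type mice, of *Ttpa* loss with the supplemented diet and of the supplemented diet in *Ttpa*-/- mice differed between the regions for 0 of 12 in limma (0.0126%, 1.19% and 0.0567% of all probes), with 4, 2 and 2 at an unadjusted p under 0.05.

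Around the members, the rest of the pathway moved in small parts. *Pcsk1*, a convertase of the regulated secretory pathway that cleaves prohormones, was the only gene of the 6 pathway lists to fall together with *Bdnf* in WT deficient cortex (-0.60, SE 0.12, adjusted p = 0.0336) and in *Ttpa*-/- supplemented cortex (-0.62, SE 0.12, adjusted p = 0.0221). It was also lower in *Ttpa*-/- supplemented cerebellum (-0.42, adjusted p = 0.0186), where *Bdnf* fell too. Of all probes, 0.184%, 0.134% and 7.07% fell in these comparisons, in that order.

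Few genes that respond to BDNF and TrkB were called in cortex. Of 20, 1 rose with age (*Dusp4*, a phosphatase that ends MAP kinase signals, 0.92), where 2.76% of all probes rose. In *Ttpa*-/- deficient mice 1 rose (*Npy*, a neuropeptide of interneurons, 0.39), where 9.45% of all probes rose. In WT deficient and *Ttpa*-/- supplemented mice 0 of 20 changed in limma, where 0.340% and 0.212% of all probes did. At an unadjusted p under 0.05 in limma these were 3 and 4, against 4403 of 28254 and 2406 of 28268 of all probes. In cerebellum 6 of 20 rose with age, where 6.93% of all probes rose (median of the list 0.42, of all probes -0.01), led by *Tac1* and *Sst*, both neuropeptides, at 2.39 and 2.37. In *Ttpa*-/- supplemented cerebellum 6 of 20 fell, where 7.07% of all probes fell (median -0.41, of all probes -0.01), led by *Crh* at -1.92, the synaptic pentraxin *Nptx2* at -1.74 and the activity-dependent factor *Npas4* at -1.33.

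Trk adaptors and kinases numbered 40 on the arrays. In aging cerebellum 2 rose and 2 fell among 39 tested, close to the 11.0% of all probes that changed, led by *Plcg2*, a phospholipase C of immune cells, at 0.97 and by *Camk4*, a kinase upstream of CREB, at -0.59. In *Ttpa*-/- deficient cortex 4 rose and 2 fell (19.0% of all probes changed), with *Mapk3*, which encodes ERK1, at 0.49 and the Trk adaptor *Sh2b1* at 0.29. For *Ttpa*-/- deficient cerebellum these were 1 and 4 (13.2% of all), with *Kidins220*, a scaffold that binds Trk receptors, at -0.68.

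Regulators of *Bdnf* transcription included *Creb1*, which fell by 0.42 in *Ttpa*-/- deficient cortex (adjusted p = 0.00798) and by 0.46 in aging cerebellum (adjusted p = 0.00546). There 9.56% and 4.08% of all probes fell. Of 12, 1 rose in aging cortex, *Bhlhe40*, by 1.1 (adjusted p = 8.17e-06), where 2.76% of all probes rose. In WT deficient and *Ttpa*-/- supplemented cortex, where *Bdnf* fell, 0 changed in limma (1 each at an unadjusted p under 0.05). Of all probes, 0.340% and 0.212% changed there. Among 16 partners of p75, *Lingo1*, which forms a receptor complex with p75, rose in cerebellum by 1.13 in *Ttpa*-/- deficient and 1.14 in *Ttpa*-/- supplemented mice (adjusted p = 1.87e-05 and 2.05e-05). Of all probes, 6.78% and 7.59% rose in these comparisons. Among genes of processing and sorting, *Cadps2*, which promotes release of vesicles that hold BDNF, fell in aging cerebellum by 0.47 (adjusted p = 1.84e-04), where 4.08% of all probes fell.

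The genes most like each member were found by Pearson's correlation over the 40 arrays, after the mean of each region was taken off, among 13739 genes above background on all arrays. This is a description, in which the arrays share groups and slides. *Ntf3* was most like *Col23a1* (0.90), *S1pr2* (0.82) and *Sstr3* (0.82), and the last of these was like it in cerebellum (0.91) and not in cortex (-0.12). *Bdnf* was most like *Lamp3* (0.77), *Ntrk2* most like *Sspn* (0.78), *Ntrk3* most like *Rfx1* (0.68), *Ngfr* most like *Pqlc3* (0.81) and *Sort1* most like *Exoc3* (0.84).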

How the data were processed

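Total RNA, extracted with the mirVana kit and labelled with Cy3, was hybridised by the authors to 40 Agilent 1-colour arrays. Per the file headers, Feature Extraction 10.7.3.1 gave the background-corrected signal intensity of each of 62976 spots; the submitters' notes name version 10.1.1.1. The deposited series-wide values are log2 values, which over 55589 probes equalled the log2 intensity minus the array's 75th percentile with each probe centred (median difference 0.00085), and served as an alternative. Flagged spots (95 to 148 an array) and 92 probes without a value on every array were left out, and spots of a probe were averaged on the log2 scale before scaling. Within a group, arrays correlated at 0.973 to 0.993; their number limits the precision.

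The 10 groups of 4 were taken from the labels and fitted together in limma 3.58.1 in R 4.3.3, with empirical Bayes and Benjamini-Hochberg adjustment over the 28043 to 31971 probes detected well above background throughout at least 1 compared group. The scripts were tested on simulated data. The methods' t-test and their 1.5-fold limit were alternatives. Replicate numbers paired cortex and cerebellum of *Ttpa*-/- deficient mice only: correlations of the deviations were 0.176 to 0.628 for all 4, each highest with its own number. The 7 genes and all pathway and marker lists were chosen with earlier results of these data known. All member probes were named; of each pathway list and comparison, genes were named from the 3 largest changes in each direction. A gene of a list was read by its brightest probe, and 3 genes most like each member were found by correlation. Positions are those of the files (mm9). Results for some genes of the pathway lists are not reported here.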

Additional observations from a re-analysis of the deposited data

Results flagged for a closer look

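Among 130 sets of 4 arrays (13 probes in 10 groups), 4 held an array far from the other 3, where chance gives about 1 in 20. *Ntf3* in young wild-type cortex replicate 4 was -1.34, with the others at -0.491 to -0.406. Truncated *Ntrk2* in *Ttpa*-/- deficient cortex replicate 1 was 2.20, with the others at 2.37 to 2.38. *Ntrk3* kinase probe 1 in aged wild-type cerebellum replicate 2 was 3.90, with the others at 3.62 to 3.64. The *Sort1* coding probe in aged wild-type cerebellum replicate 4 was -1.67, with the others at -2.06 to -2.0.

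Effects that differed between cortex and cerebellum by limma's interaction test were those of age on *Ntf3* (2.59, cortex minus cerebellum), of *Ttpa* loss with the deficient diet on *Ntrk3* truncated probe 1 (-0.495) and the *Sort1* 3' end probe (-0.739), and of *Ttpa* loss among mice on the deficient diet on *Ntrk3* kinase probe 2 (0.540) and the *Sort1* 3' end probe (-0.731).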

How the results depend on the processing

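No log2 difference of a member that was called changed in the main fit changed sign under any alternative that was run. The signs of differences that were not called there were not followed. Of 832 such values outside the fits without 1 array, 697 stayed on their side of the threshold and 135 no longer passed, and without 1 array 587 of 688 stayed and 101 no longer passed; the causes were not tested except where fewer arrays or a stricter limit define the setting. Counts of members changed are given below in the order *Ttpa*-/- deficient, WT deficient, *Ttpa*-/- against WT on the deficient diet, *Ttpa*-/- supplemented, and supplemented against deficient diet.

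Under median scaling the 5 cortex counts of 6, 1, 3, 1 and 3 were 3, 0, 0, 0 and 1, the cerebellum counts for *Ttpa*-/- deficient, WT deficient and *Ttpa*-/- supplemented mice of 2, 1 and 2 were 0, 0 and 1, and both interaction counts of 2 were 0. It moved the median of all probes by over 0.1 in 4 comparisons: supplemented against deficient diet in *Ttpa*-/- cortex (-0.109), WT deficient cerebellum (-0.178), *Ttpa*-/- against WT deficient cerebellum (0.178) and the regions in WT deficient mice (0.288). With limma on the compared groups only, the last 4 cortex counts were 0, aging cerebellum 1 in place of 3, the first 3 cerebellum counts of 2, 1 and 1 were 0, *Ttpa*-/- supplemented cerebellum was 1 in place of 2, and the interaction counts were 1 and 0. Beyond 1.5-fold, *Ttpa*-/- deficient cortex, *Ttpa*-/- against WT on the deficient diet and the supplemented diet in cortex were 0, aging cerebellum was 1, the first 3 cerebellum counts were 0 and the fourth was 1, regions in aged wild-type and *Ttpa*-/- deficient mice were 6 each in place of 10, and the interaction counts were 1 and 1. The methods' t-test, adjusted, gave 0, 0, 0 and 1 for the last 4 cortex counts, 1 for aging cerebellum and 0, 0, 0 and 1 for the first 4 cerebellum counts.

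With no filter on background the first 3 cerebellum counts were 0 and the second interaction count 1. With array weights aging cortex was 3 in place of 0, WT deficient cortex 3, *Ttpa*-/- against WT on the deficient diet 5 in cortex and 0 in cerebellum, and the second interaction count 1. Quantile normalization gave 1 for *Ttpa*-/- deficient cerebellum. With the replicate number as a block, where the numbers do not pair the mice, that count was 1, WT deficient cerebellum 0 and the second interaction count 1; the block changed no other count by over 1.5 times, and in paired *Ttpa*-/- deficient mice the regions gave 11 in place of 10. Of 27 calls recomputed from the mean over all probes of a gene, 12 did not pass, where probes of *Sort1* and *Ntrk3* disagreed. Normexp and the authors' table moved no count by over 1.5 times. A block for slide could not be fitted.

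Without 1 array, the counts were 0 to 2 in aging cortex (1 without young and 2 without aged replicate 4), 4 to 6, 0 to 1, 1 to 4, 0 to 1 and 0 to 3 in the 5 cortex comparisons, 3 to 4 in aging cerebellum, 0 to 2, 0 to 2, 0 to 1, 1 to 3 and 0 to 0 in the 5 cerebellum comparisons, 10 to 11, 9 to 11, 11 to 11, 9 to 11 and 10 to 12 between the regions, and 1 to 1, 1 to 2, 0 to 0, 1 to 2, 0 to 0 and 0 to 0 for the interactions. Over all probes, the WT deficient cortex count of 96 ranged from 0 to 4084 over the alternatives and the *Ttpa*-/- supplemented cortex count of 60 from 1 to 320. Dim signals limit *Ntf5*, which was not tested.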
